A study of Zea mays with 9 samples.

Results

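The genes described here are those whose deposited expression value was compared between maize root apices given nitrate together with the nitric oxide scavenger cPTIO and root apices given nitrate alone. A gene entered the comparison when its RPKM (the read count divided by transcript length and by the number of mapped reads) reached 1 in either condition. This held for 21617 of the 45260 genes of the table. At the edge of this limit, Zm00001d048140 entered with 1.0001 RPKM in NO3-+cPTIO, while Zm00001d038920, with 0.9997 RPKM in NO3-, did not. A gene is called responding when its ratio of NO3-+cPTIO to NO3- passed 2-fold in either direction, whether or not it also responded to nitrate. Zm00001d035434, with 7.67 RPKM in NO3-+cPTIO against 3.83 RPKM in NO3-, lay just past that limit, and Zm00001d032168, with 29.6 RPKM against 14.8 RPKM, lay just short of it.

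Primary root apices of the inbred line B73 were taken from seedlings germinated for 3 days. By the methods of the study, all groups then spent 24 h in a solution without nitrogen before the 24 h of treatment. The NO3-+cPTIO group received 1 mM KNO3 and 1 mM cPTIO, the NO3- group received 1 mM KNO3, and the -N group, given here for reference, received neither. The labels list 3 libraries of polyA RNA for each group, and the methods of the study state that 2 of the 3 NO3-+cPTIO libraries were kept, without naming them. The deposited table holds 1 pooled value per gene and group, so no difference below has a replicate check, and neither an SD nor a p-value can be computed from it. The 6 NO3- and -N libraries are labelled as re-analysed, having been deposited before, and the NO3-+cPTIO libraries are not, so the effect of the scavenger and any difference between these sets of libraries cannot be told apart. A solution with cPTIO and no nitrate was not analysed here. In such bulk samples, fewer cells of a type and less RNA per cell also cannot be told apart.

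Nitric oxide (NO) is a small radical that plants use as a signal. In roots, part of it arises from nitrate, because nitrate reductase can pass electrons to nitrite as well as to nitrate. The root apex holds the root cap, the meristem and the zone where cells begin to elongate, and NO is known to act there on cell elongation together with auxin. cPTIO is a stable radical that oxidises NO and so removes it from the tissue.

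The study designed quantitative PCR primers against some of the genes. The pairs of the 4 that passed 2-fold here are printed because they mark the transcripts that were chosen for a second measurement. The study made that measurement in -N and NO3- only, so the difference with the scavenger has no second measurement. The primers are written 5′ to 3′ in lower case, in the order of the primer list.
Zm00001d045420, root cap-specific protein, first primer: ctcattccaccactgccac
Zm00001d045420, root cap-specific protein, second primer: gctgcgtgttgaagttgga
Zm00001d030121, roothairless6, first primer: ttacaaagtggaggacatagga
Zm00001d030121, roothairless6, second primer: ccgacaataagctcttgagaaa
Zm00001d031556, auxin induced in roots 12, first primer: atctccagacttaccgattgag
Zm00001d031556, auxin induced in roots 12, second primer: ttgctctgttcgctctgtt
Zm00001d052961, root hair defective 3 homolog 2, first primer: catcctcatcttcctccgt
Zm00001d052961, root hair defective 3 homolog 2, second primer: acacgacaatggttcctagtt

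Some of these genes were also taken here as markers of cell types of the apex. The root cap-specific protein had 23.0 RPKM in NO3-+cPTIO, against 6.04 RPKM in NO3- and 44.7 RPKM in -N. Bearskin 2 (Zm00001d003583), whose Arabidopsis namesake is a transcription factor of root cap maturation, had 1.19 RPKM in NO3-+cPTIO and 0.207 RPKM in NO3-, while SOMBRERO (Zm00001d016119), another root cap factor in Arabidopsis, had 4.65 and 4.77 RPKM in the same conditions. Of the 3 root cap markers, 2 were thus over 2-fold higher with the scavenger and 1 was nearly equal. Over all genes tested, 7.08% were higher and 12.7% lower. The genes taken by their names as root hair markers went in opposite directions. Roothairless6, needed for root hairs in maize, had 0.170 RPKM in NO3-+cPTIO against 2.39 RPKM in NO3-, whereas root hair defective 3 homolog 2 had 1.98 RPKM against 0.698 RPKM. The study took all these root cap and root hair genes from its nitrate-responsive genes, which it grouped by values that include NO3-+cPTIO. Their directions are therefore no evidence on a cell type. Plastid genes, 73 in the table, summed to 14.6 RPKM in NO3-+cPTIO and 14.5 RPKM in NO3-.

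With the scavenger, 1531 genes were over 2-fold higher than with nitrate alone, which is 7.08% of the genes tested, and 2740 genes were over 2-fold lower, which is 12.7%. Together these are 4271 genes, or 19.8%. They include 74 genes listed at 0 in NO3- and 130 listed at 0 in NO3-+cPTIO, which have no finite ratio. Most differences were moderate. Over the genes above 0 in both conditions, the median was 2.93-fold among the higher genes, with quartiles of 2.31-fold and 4.59-fold, and 2.77-fold among the lower genes, with quartiles of 2.27-fold and 3.98-fold. Past 4-fold, 523 genes were higher (2.42%) and 777 were lower (3.59%), together 6.01%. Past 8-fold, 255 were higher (1.18%) and 324 lower (1.5%), together 2.68%. Past 32-fold the counts were 126 (0.583%) and 156 (0.722%), together 1.3%, and without the genes listed at 0 the balance turned, with 52 genes higher and 26 lower. The genes that did not pass 2-fold, 17346 in number, had a median difference of 1.23-fold in either direction, and for 9081 of the genes tested (42.0%) the values differed by less than a ratio of 5 to 4.

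The balance of the directions depends on how the conditions are scaled. Over the 19489 genes that reached 1 RPKM in both conditions, the median log2 ratio was -0.05, with quartiles of -0.44 and 0.28. The RPKM of all genes summed to 773454 in NO3-+cPTIO and to 915808 in NO3-. When both conditions were brought to the same sum, all log2 ratios shifted by 0.24, and 2258 genes were higher while 1902 were lower. Higher genes then made up 54.3% of the responding genes, against 35.8% with the values as deposited. The ratios below are those of the deposited values.

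**Figure D1:**
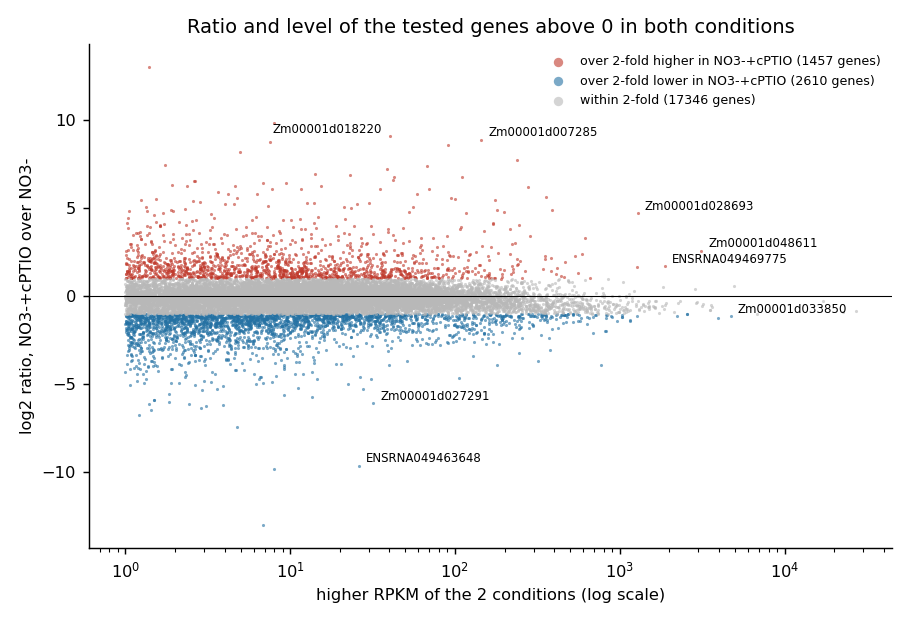
Each point is 1 of the tested genes above 0 in both conditions, plotted by the higher of its 2 RPKM values (log scale) and its log2 ratio of NO3-+cPTIO to NO3-; red points are over 2-fold higher, blue points over 2-fold lower and grey points within 2-fold. Zm00001d018220 and Zm00001d007285 lie near a log2 ratio of 9, and Zm00001d028693 and Zm00001d048611 combine a ratio past 2-fold with over 1000 RPKM.

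Responding genes were found at every level of expression, with shares that followed the level differently in the 2 directions. Higher genes made up 12% of the 3560 genes whose larger value lay between 1 and 3 RPKM, and 4.57% of the 481 genes at 300 RPKM or above. Lower genes made up 24.6% of the first class, 6.88% of the 4257 genes between 30 and 100 RPKM, and again 17.0% at 300 RPKM or above. The lower direction was therefore frequent at both ends of the range. In the top class the median log2 ratio was -0.56, against 0.01 between 10 and 30 RPKM. In RPKM, the higher genes gained 38256 in all and the lower genes lost 70710. The higher genes had a median of 7.92 RPKM in NO3-+cPTIO, 1.91 RPKM in NO3- and 2.16 RPKM in -N. For the lower genes the corresponding medians were 1.79, 6.01 and 4.44 RPKM.

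The length of the locus, which is the genomic span the table gives for a gene, separated the directions most clearly. Among the 902 tested genes with a locus of up to 500 bp, 49.0% were over 2-fold lower and 13.4% were higher in NO3-+cPTIO. The share of lower genes was 37.8% between 500 and 1000 bp, 23.7% between 1000 and 2000 bp and 11.7% between 2000 and 4000 bp. It was 4.76% between 4000 and 8000 bp and 2.19% among the 1233 genes over 16000 bp, where 4.70% were higher. The median locus measured 2864 bp among higher genes, 1622 bp among lower genes and 4352.5 bp among the others. The share of lower genes followed length at each of 3 levels of expression. With 1 identifier per locus, lower genes made up 43.7%, 38.2% and 48.1% of loci up to 1000 bp at 1 to 10, 10 to 100 and over 100 RPKM, and 6.70%, 1.84% and 3.85% of loci over 4000 bp. With both conditions brought to the same sum of RPKM, lower genes still made up 41.0% of the shortest class and 1.45% of the longest.

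**Figure D2:**
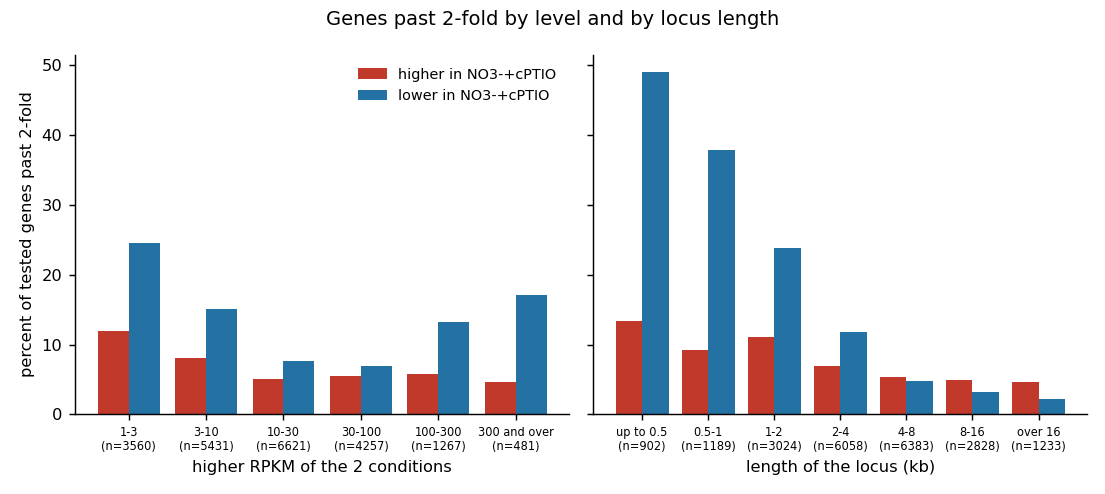
Bars give the percent of tested genes over 2-fold higher (red) and over 2-fold lower (blue) in NO3-+cPTIO than in NO3-, by the higher RPKM of the 2 conditions (left) and by the length of the locus in kb (right), with the number of genes under each class. The share of lower genes is 24.6% in the lowest and 17.0% in the highest class of level, and it is 49.0% for the shortest and 2.19% for the longest loci.

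The dependence on length was also present between the other conditions. Among genes that reached 1 RPKM in all 3 conditions, the 542 with a locus of up to 500 bp had a median log2 ratio of -0.84 for NO3-+cPTIO over NO3-, of -0.39 for NO3-+cPTIO over -N and of 0.50 for NO3- over -N. For the 1173 genes over 16000 bp these medians were 0.14, 0.15 and -0.00. By these medians, short genes stood lowest in NO3-+cPTIO and highest in NO3-, with -N between them. What gave rise to the dependence on length was not tested. The 3 ratios share their columns and are given side by side only. The RPKM divides by transcript length, which the table does not hold, and the part of length in the calls of single genes was not tested. When the median of each length class was taken off the log2 ratios, a setting chosen after the values were seen, 1894 genes were higher and 1894 lower. Of the genes called on the deposited values, 1477 higher and 1862 lower genes were among them.

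**Figure D3:**
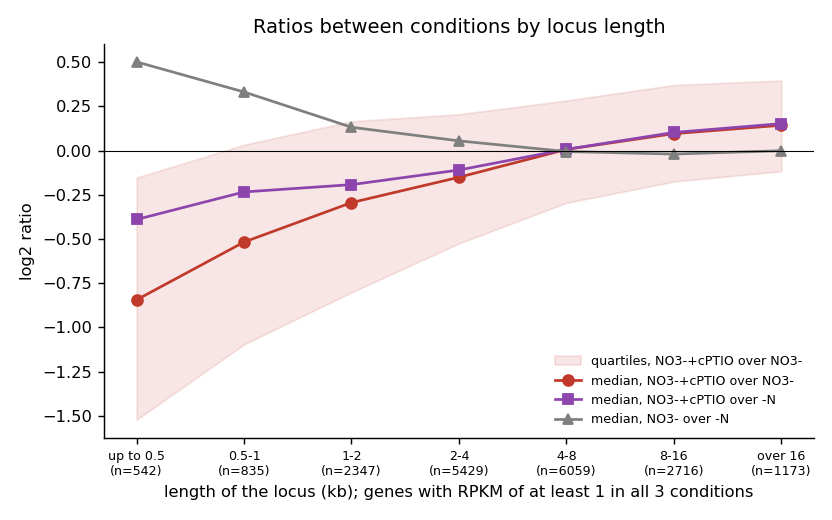
Median log2 ratios of NO3-+cPTIO over NO3- (red circles), NO3-+cPTIO over -N (purple squares) and NO3- over -N (grey triangles) by the length of the locus in kb, for genes that reached 1 RPKM in all 3 conditions; the band spans the quartiles of the first ratio. The red line goes from -0.84 in the shortest class to 0.14 in the longest, and the grey line lies at 0.50 in the shortest class.

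Among genes above 0 in both conditions and with at least 10 RPKM in 1 of them, the highest ratio was that of Zm00001d018220 (chromosome 5, 216862590 to 216863616 of AGPv4), with 40.1 RPKM in NO3-+cPTIO, against 0.0743 RPKM in NO3- and 0.190 RPKM in -N. Zm00001d007285 (chromosome 2) had 144 RPKM in NO3-+cPTIO against 0.305 RPKM in NO3-, and Zm00001d021168 (chromosome 7) had 90.6 RPKM against 0.242 RPKM. Zm00001d051251 had the highest level of the 8 genes with the largest ratios, 237 RPKM in NO3-+cPTIO against 1.10 RPKM in NO3-. The other 4 were Zm00001d044156, Zm00001d051254, Zm00001d012322 and Zm00001d027192, with log2 ratios of 7.36, 7.21, 6.91 and 6.89. In -N all 8 were between 0.190 and 1.31 RPKM, so they were low in both conditions without the scavenger. None of these identifiers is paired with a name in the sources used here. Zm00001d051251 and Zm00001d051254 lie within 213915 bp of each other on chromosome 4. Of the genes between them, Zm00001d051252 had 2.76 RPKM in NO3-+cPTIO and 3.88 RPKM in NO3-, and Zm00001d051253 and Zm00001d026910 were under 1 RPKM.

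At the other end, ENSRNA049463648 had the lowest ratio by the same rule, and it is described with the microRNA loci below. It was followed by Zm00001d027291 (chromosome 1, 1942160 to 1942595), with 0.471 RPKM in NO3-+cPTIO, 31.9 RPKM in NO3- and 14.8 RPKM in -N. Zm00001d037894 (chromosome 6) had 0.257 RPKM in NO3-+cPTIO against 13.6 RPKM in NO3-, and it is listed at 0 in -N. Zm00001d048644 (chromosome 4) had 0.298 RPKM against 11.1 RPKM, with 0.0839 RPKM in -N. Zm00001d037894 and Zm00001d048644 were thus high only with nitrate alone. Zm00001d018744 (chromosome 7), with 0.711 RPKM in NO3-+cPTIO and 27.8 RPKM in NO3-, showed another pattern, as it had 39.7 RPKM in -N. The class III peroxidase Zm00001d022282, an enzyme family that oxidises phenolics and cross-links cell walls, Zm00001d053320 and Zm00001d028917 were likewise high in both conditions without cPTIO. Their values in NO3-+cPTIO were 0.713, 0.552 and 1.19 RPKM, against 22.3, 14.5 and 30.8 RPKM in NO3-.

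**Figure D4:**
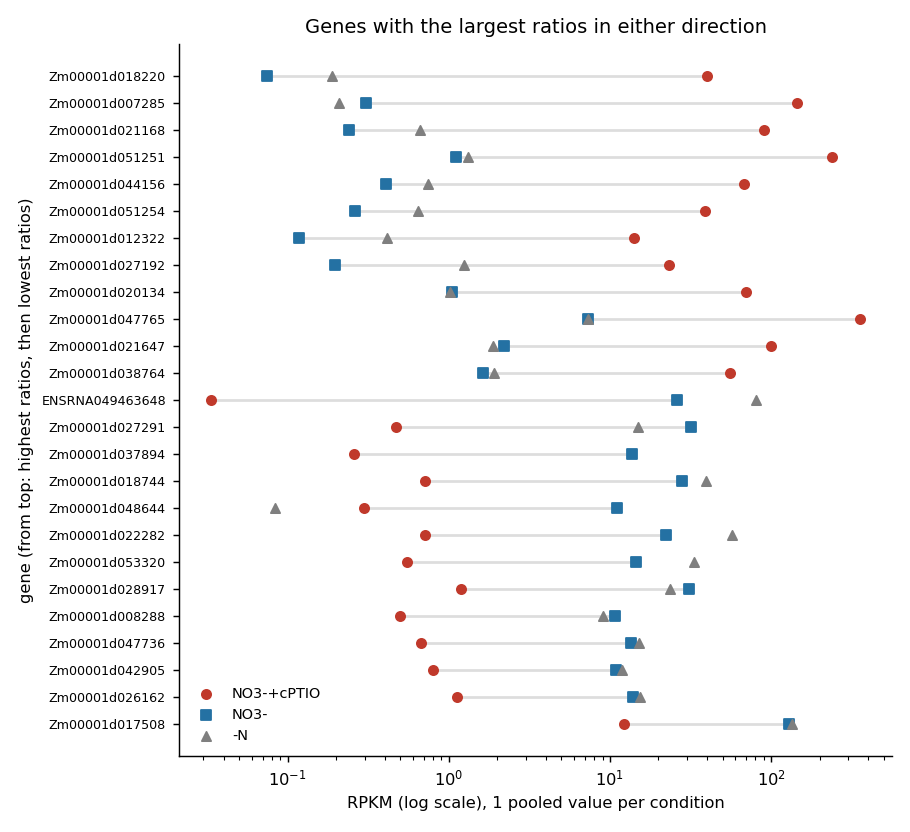
RPKM (log scale) of the genes with the highest ratios (upper rows) and the lowest ratios (lower rows) in NO3-+cPTIO (red circles), NO3- (blue squares) and -N (grey triangles), those with nearly equal NO3- and -N values included; a value of 0 is not drawn. In the upper 12 rows the NO3- and -N values all lie at 7.31 RPKM or below and the NO3-+cPTIO values between 14.1 and 356 RPKM.

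Measured as a difference in RPKM rather than as a ratio, other genes stand out. Zm00001d048611 (chromosome 4, 1283711 to 1284484) had 3098 RPKM in NO3-+cPTIO against 517 RPKM in NO3-, and Zm00001d028693 (chromosome 1) had 1280 RPKM against 49.1 RPKM. The identifier of enod40, ENSRNA049469775 (chromosome 2, 31647278 to 31647471), had 1882 RPKM in NO3-+cPTIO, 580 RPKM in NO3- and 373 RPKM in -N. Enod40 is an RNA with short reading frames, first studied in legume nodules. Zm00001d024778 had 1266 RPKM against 404 RPKM. Among genes past 2-fold, the largest loss was that of Zm00001d033850 (chromosome 1), the most abundant gene outside the ribosomal RNA loci in NO3-, with 2137 RPKM in NO3-+cPTIO, 4696 RPKM in NO3- and 4804 RPKM in -N. Zm00001d013568, Zm00001d003157 and Zm00001d002690 had 1274, 1254 and 1019 RPKM in NO3-+cPTIO, against 2571, 2547 and 2222 RPKM in NO3-. These 4 losses lay between 2.02-fold and 2.2-fold, and none passed 2-fold when the conditions were scaled to the same sum. The log2 ratio of Zm00001d033850, for example, was then -0.89. The second largest loss, that of the ribosomal RNA identifier ENSRNA049478392 (chromosome 6), stayed past 2-fold under that scaling, at -1.02, with 1642 RPKM in NO3-+cPTIO against 3948 RPKM in NO3- as deposited.

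Some genes reached the minimum in NO3-+cPTIO alone. Of the 21617 genes tested, 600 had at least 1 RPKM in NO3-+cPTIO and under 1 RPKM in both NO3- and -N. Of these, 437 were past 2-fold. At 5 RPKM or more in NO3-+cPTIO, 59 such genes remained in the count, and at 10 RPKM or more 36. The reverse pattern was under 1 RPKM in NO3-+cPTIO and at or above the level in both other conditions. It was found for 785 genes at 1 RPKM, of which 609 were past 2-fold. At 5 RPKM it was found for 45 genes and at 10 RPKM for 17, all of them past 2-fold.

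Most responding genes did not respond to nitrate by the 2-fold limit. Of the higher genes, 1082 (70.7%) had a ratio of NO3- to -N within 2-fold, and of the lower genes 2093 (76.4%) did, against 92.1% of all genes tested. Higher genes were lower in NO3- than in -N by over 2-fold in 184 cases and higher in 165. Lower genes were higher in NO3- than in -N in 511 cases and lower in 75. Of all 21617 genes tested, 1128 (5.22%) were over 2-fold higher in NO3- than in -N and 406 (1.88%) over 2-fold lower. With the nitrate limit at a ratio of 5 to 4, most responding genes no longer lay within the limit. It then held 514 of the higher genes (33.6%) and 858 of the lower genes (31.3%), against 64.9% of all genes tested. At this limit 1566 of the lower genes (57.2%) were higher in NO3- than in -N, against 4930 (22.8%) of all genes tested. The comparisons share the NO3- values, so these counts are given without a reading of their overlap. Of the 20864 genes tested outside the 835 nitrate-responsive genes of the study, 1361 were higher and 2501 lower. Inside that list 753 genes were tested, of which 170 were higher and 239 lower, against 7.08% and 12.7% of all genes tested. The list was chosen on the NO3- and -N values, so these counts are also given without a reading.

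A stricter set holds the 13774 genes with at least 1 RPKM in NO3- and -N whose values in these conditions differed by less than a ratio of 5 to 4, which is 0.32 on the log2 scale. Of these, 396 (2.88%) were over 2-fold higher and 845 (6.13%) over 2-fold lower in NO3-+cPTIO, and past 8-fold 19 were higher (0.138%) and 46 lower (0.334%). Over all genes tested, which include genes under 1 RPKM in NO3- or -N, more passed. The shares were 7.08% higher and 12.7% lower past 2-fold, and 1.18% and 1.5% past 8-fold. The dependence on length held in the stricter set as well, as 35.6% of its 174 loci up to 500 bp and 0.512% of its 977 loci over 16000 bp were lower. Zm00001d051251, described above, led this set. Zm00001d020134 (chromosome 7, 94949584 to 94962130) had 69.4 RPKM in NO3-+cPTIO, 1.04 RPKM in NO3- and 1.02 RPKM in -N. Zm00001d047765 (chromosome 9, 141344055 to 141346400) had 356 RPKM in NO3-+cPTIO, 7.31 RPKM in NO3- and 7.27 RPKM in -N, and was the most abundant of the 5 highest. Zm00001d021647 and Zm00001d038764 followed with 99.5 and 55.6 RPKM in NO3-+cPTIO, against 2.19 and 1.64 RPKM in NO3-.

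The lowest ratios of that set belonged to Zm00001d008288 (chromosome 8), with 0.497 RPKM in NO3-+cPTIO against 10.8 RPKM in NO3-, and Zm00001d047736 (chromosome 9), with 0.675 RPKM against 13.5 RPKM. Zm00001d042905 (chromosome 3) had 0.803 RPKM in NO3-+cPTIO, 10.9 RPKM in NO3- and 11.8 RPKM in -N. It shares its locus with zma-MIR397a, which had 4.46 RPKM in NO3- and is listed at 0 in the other 2 conditions. Zm00001d026162 and Zm00001d017508 have loci of 406 and 382 bp. Zm00001d017508 had 12.2 RPKM in NO3-+cPTIO, against 129 RPKM in NO3- and 134 RPKM in -N.

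Roles could be given to few responding genes. The pathway table of the study assigns functions to members of its nitrate list alone, a list chosen on the NO3- and -N values of these libraries, so the counts below describe those members and are no evidence on a pathway. Of 85 genes with a role sorted here, 79 were tested. Of these, 23 were over 2-fold higher, 23 lower and 33 within 2-fold, where 7.08% and 12.7% of all genes tested were higher and lower. Their median log2 ratio was -0.11, against -0.07 over all genes tested.

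The highest ratios among them were in detoxification. Glutathione S-transferases, which couple glutathione to reactive or foreign compounds, numbered 4, of which 3 were higher. Zm00001d029699 (chromosome 1) had 176 RPKM in NO3-+cPTIO, 3.98 RPKM in NO3- and 8.65 RPKM in -N. Zm00001d043344 (chromosome 3) had 117 RPKM against 4.46 RPKM in NO3-, and Zm00001d029708 had 26.8 RPKM against 5.08 RPKM. The fourth, Zm00001d029707, had 0.10 RPKM in NO3-+cPTIO against 1.56 RPKM in NO3-. The 1 catalase of the list, an enzyme that breaks down hydrogen peroxide (Zm00001d027511), had 10.4 RPKM in NO3-+cPTIO, 0.675 RPKM in NO3- and 11 RPKM in -N. The respiratory burst oxidase Zm00001d007430, which makes superoxide, was within 2-fold, with 1.14 RPKM against 0.877 RPKM. Both ABCB-type transporters were higher, Zm00001d043762 with 39.1 RPKM against 3.13 RPKM and Zm00001d053706 with 8.40 RPKM against 2.11 RPKM.

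The class III peroxidases went both ways. Of 27 members, 24 were tested, 7 were higher and 8 lower, 2 of these listed at 0 in NO3-+cPTIO, beside 7.08% higher and 12.7% lower over all genes tested. Their median log2 ratio was -0.42. Zm00001d037410 (chromosome 6) had 37.4 RPKM in NO3-+cPTIO against 9.94 RPKM in NO3-, and Zm00001d037359 had 5.36 RPKM against 0.490 RPKM. Zm00001d047358 (chromosome 9) had 0.0416 RPKM against 3.11 RPKM. The most abundant member, Zm00001d040364, stayed within 2-fold at 355 RPKM against 425 RPKM.

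Among hormone genes, the 12-oxophytodienoate reductase Zm00001d037182, of a family with a member in jasmonate synthesis, had 22.8 RPKM in NO3-+cPTIO against 1.94 RPKM in NO3-. Both jasmonate ZIM-domain proteins, which repress jasmonate responses, were higher, Zm00001d005813 with 4.54 RPKM against 1.58 RPKM and Zm00001d027900 with 5.22 RPKM against 2.24 RPKM. The lipoxygenase Zm00001d041204 was within 2-fold. On the auxin side, the GH3 gene Zm00001d010697, whose family couples auxin or jasmonate to amino acids, had 0.113 RPKM against 1.46 RPKM, the Aux/IAA repressor Zm00001d045203 had 2.05 RPKM against 5.63 RPKM, and auxin induced in roots 12 (Zm00001d031556) had 0.531 RPKM against 2.90 RPKM. The other Aux/IAA gene, Zm00001d034463, and the SAUR gene Zm00001d026262 were within 2-fold, with log2 ratios of -0.68 and -0.11, and the other GH3 gene, Zm00001d007395, was under 1 RPKM in both conditions. Carotenoid cleavage dioxygenase 8 (Zm00001d043442), an enzyme of strigolactone synthesis, had 0.730 RPKM in NO3-+cPTIO and 1.98 RPKM in NO3-. The ACC synthase Zm00001d039487, which makes the ethylene precursor, had 1.71 RPKM against 3.99 RPKM. Both cytokinin dehydrogenases were within 2-fold.

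The nitrate and nitrite reductases of the list did not pass 2-fold with the values as deposited. The nitrate reductases Zm00001d018206 and Zm00001d049995 had 4.66 and 2.23 RPKM in NO3-+cPTIO, against 4.06 and 1.77 RPKM in NO3- and 1.44 and 0.291 RPKM in -N. The nitrite reductase Zm00001d018161 had 29.3 RPKM in NO3-+cPTIO, 16.3 RPKM in NO3- and 0.820 RPKM in -N, and it passed 2-fold, with a log2 ratio of 1.08, when both conditions were scaled to the same sum. The ferredoxin Zm00001d038291, an electron donor, was lower at 16 RPKM against 37.2 RPKM, while its reductase Zm00001d034345 stood at 101 RPKM against 110 RPKM. An NRT2-type nitrate transporter, Zm00001d011679, was under 1 RPKM in both conditions and was not tested.

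In carbon metabolism, the pyruvate decarboxylase Zm00001d008651, the entry to ethanol fermentation, was higher with 19.6 RPKM in NO3-+cPTIO against 2.14 RPKM in NO3-, and the alcohol dehydrogenase Zm00001d030348, its next step, was lower with 7.69 RPKM against 16.9 RPKM. One trehalose 6-phosphate phosphatase, Zm00001d006375, had 5.39 RPKM against 0.359 RPKM, and the other members, Zm00001d022192 and Zm00001d044854, had log2 ratios of 0.46 and -0.92. The glutamate decarboxylase Zm00001d031749, which makes gamma-aminobutyrate, was lower at 1.73 RPKM against 9.13 RPKM. Apyrase 1 (Zm00001d049008) and adenylyl-sulphate kinase 3 (Zm00001d048785), an enzyme of sulphate activation, were higher, with 2.62 RPKM against 0.744 RPKM and 25.8 RPKM against 5.59 RPKM.

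Both actin depolymerizing factors, which sever actin filaments, were lower, Zm00001d051388 with 0.271 RPKM in NO3-+cPTIO against 6.61 RPKM in NO3- and 18.3 RPKM in -N, and Zm00001d017516 with 0.598 RPKM against 4.27 RPKM in NO3-. The xyloglucan endotransglucosylase Zm00001d009309, which remodels wall polymers, had 3.03 RPKM against 12.8 RPKM. Of 5 endoglucanases, 2 were lower and 1 was higher, with Zm00001d026605 at 0.0721 RPKM against 2.90 RPKM and Zm00001d008952 at 2.21 RPKM against 1.07 RPKM.

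Responding genes were spread over the genome. On chromosomes 1 to 10, between 6.48% and 8.19% of the tested genes were higher and between 11.9% and 14.3% lower, with the highest share of higher genes on chromosome 3 and of lower genes on chromosome 7. The next tested gene on the chromosome passed 2-fold in the same direction for 12.1% of the higher genes and for 15.3% of the lower genes, against 7.08% and 12.7% of all genes tested. When pairs at the same locus were left out, these shares were 11.7% and 14.9%. Past 4-fold, the share over both directions was 6.77%, where 2.42% of all genes tested were higher and 3.59% lower.

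Runs of neighbouring tested genes in 1 direction were short. Of higher genes there were 18 runs of 3, 2 of 4 and 1 of 5, and of lower genes 54 runs of 3 and 11 of 4. Some runs count identifiers that share a locus, as 1 lower run on chromosome 10 holds 4 RNA identifiers at 1 locus. The longest held 5 higher genes, from Zm00001d049418 to Zm00001d049438, within 358028 bp of chromosome 4 (29894575 to 30252602). They had between 1.03 and 2.64 RPKM in NO3-+cPTIO and at most 0.171 RPKM in NO3-. The span lists 19 identifiers, the others being under 1 RPKM, and most loci there measure between 1010 and 1393 bp. Whether they share reads was not analysed, which leaves the value of each of them uncertain.

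Of the 3 runs of 4 or 5 higher genes, the most strongly expressed in NO3-+cPTIO lay on chromosome 3 (220677999 to 220827409). Zm00001d044156 had 67.4 RPKM in NO3-+cPTIO against 0.410 RPKM in NO3-, Zm00001d044157 had 72.7 RPKM against 12.2 RPKM, Zm00001d044159 had 277 RPKM against 3.76 RPKM, and Zm00001d044162 had 3.27 RPKM against 0.338 RPKM. The table lists no other gene in this span. The 4 values sum to 420 RPKM in NO3-+cPTIO, 16.8 RPKM in NO3- and 31.7 RPKM in -N. The third run of higher genes, on chromosome 3 from Zm00001d041740 to Zm00001d041744, had a median log2 ratio of 1.43. It covers 3 loci, as Zm00001d041743 and Zm00001d041744 share 1.

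The 11 runs of 4 lower genes tied as the longest, and those named were chosen after their values were seen. From Zm00001d020580 to Zm00001d020585 on chromosome 7 (123664000 to 123712512), the loci of the 4 genes measured 313 to 958 bp. Zm00001d020585 had 53.2 RPKM in NO3-+cPTIO against 227 RPKM in NO3-, Zm00001d020584 had 20.3 RPKM against 92.6 RPKM, and Zm00001d020580 had 89.4 RPKM against 197 RPKM. On chromosome 2 (34889629 to 34998444), Zm00001d003181 had 48.1 RPKM against 115 RPKM, and its neighbours Zm00001d003183, Zm00001d003184 and Zm00001d003185 had between 0.204 and 0.799 RPKM in NO3-+cPTIO, against 1.24 to 3.25 RPKM in NO3-.

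Neighbours of a family could also part. Within 218315 bp of chromosome 7 (174342433 to 174560747), 7 class III peroxidases passed 2-fold, 3 higher and 4 lower. Over all genes tested, 7.08% were higher and 12.7% lower. The directions changed along the row. Zm00001d022279 is listed at 0 in NO3-+cPTIO and had 4.58 RPKM in NO3-, Zm00001d022280 had 22.2 RPKM against 5.50 RPKM, and Zm00001d022281 had 0.206 RPKM against 3.04 RPKM. Zm00001d022282, given above, was lower, Zm00001d022283 was higher at 18.4 RPKM against 6.84 RPKM, Zm00001d022284 was lower at 0.891 RPKM against 3.59 RPKM, and Zm00001d022289 was higher at 16.8 RPKM against 6.51 RPKM. All 7 were lower in NO3- than in -N. They come from the nitrate list, chosen on the NO3- and -N values, so a nitrate difference was a condition of entry. A gene without a role between them, Zm00001d022286, had 36.0 RPKM against 29.3 RPKM. On chromosome 1, the glutathione S-transferases Zm00001d029699, Zm00001d029707 and Zm00001d029708 lie within 353167 bp, and the middle one went in the direction opposite to the others. Of the genes between them, Zm00001d029702 and Zm00001d029703 were higher, with 13.4 RPKM against 4.70 RPKM and 9.43 RPKM against 2.17 RPKM, and Zm00001d029701 was lower, with 1.40 RPKM against 4.62 RPKM. Whether the members of these families share reads was not analysed here.

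**Figure D5:**
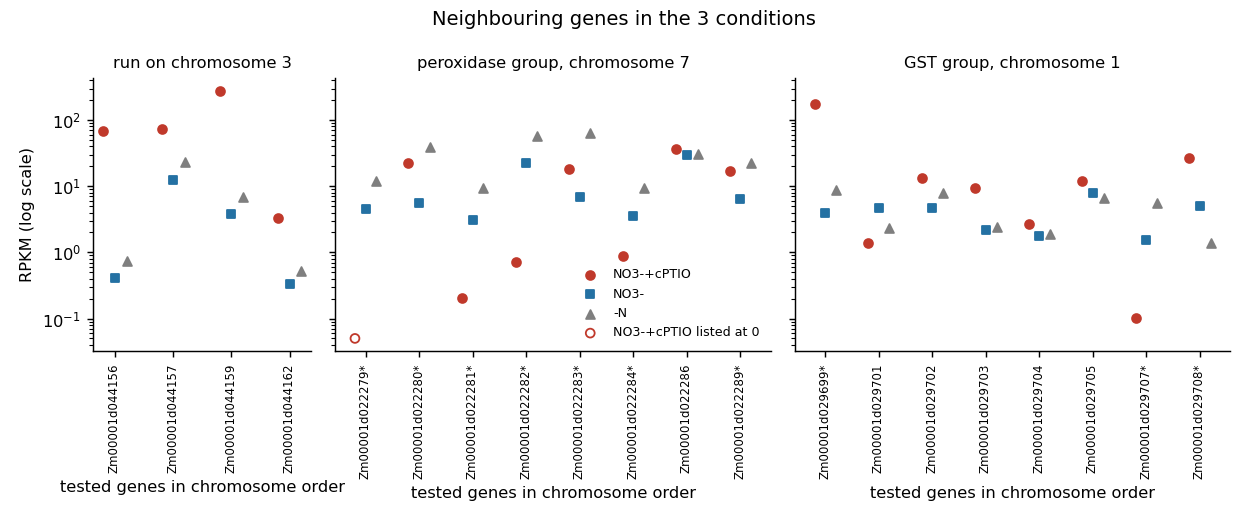
RPKM (log scale) in NO3-+cPTIO (red circles), NO3- (blue squares) and -N (grey triangles) of tested genes in chromosome order, for the run on chromosome 3, the peroxidase group on chromosome 7 and the glutathione S-transferase (GST) group on chromosome 1; asterisks mark members of the named family, and an open circle at the foot marks a gene listed at 0 in NO3-+cPTIO. In the run all 4 red circles lie above the blue squares, while in the peroxidase group they lie above for Zm00001d022280 and below for Zm00001d022281.

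Genes for RNAs other than messengers passed 2-fold more often than all genes tested, as short loci in general did. Of 370 tested identifiers of annotated RNA genes (ENSRNA), 75 were higher (20.3%) and 128 lower (34.6%), against 7.08% and 12.7% of all genes tested. Of all loci up to 500 bp, 13.4% were higher and 49.0% lower, so the share of higher ones lay above and that of lower ones below. Of the 75 higher identifiers, 43 were listed at 0 in NO3-, and of the 128 lower ones 57 were listed at 0 in NO3-+cPTIO. Such RNAs mostly lack the poly(A) tail that the libraries were selected for, so their values rest on what passed the selection. Small nucleolar RNAs, which guide the modification of ribosomal RNA, counted 207 tested, 50 higher and 68 lower, with summed values of 9385 RPKM in NO3-+cPTIO and 12641 RPKM in NO3-. Spliceosomal small nuclear RNAs counted 58 tested, 12 higher and 21 lower. Many were listed at 0 in 1 condition, such as the small nucleolar RNA SNOR75 at ENSRNA049463761, listed at 0 in NO3-+cPTIO with 61.6 RPKM in NO3-, and snoR64 at ENSRNA049468588, with 46.3 RPKM in NO3-+cPTIO and listed at 0 in NO3- and -N.

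Ribosomal RNA loci took 6.76% of the summed RPKM in NO3-+cPTIO, 9.01% in NO3- and 6.43% in -N. The part of this difference in the ratios of other genes was not tested. Of 67 tested identifiers, 5 were higher, all of them listed at 0 in NO3-, and 22 were lower, with a median log2 ratio of -0.82. Over all loci up to 500 bp, 13.4% were higher and 49.0% lower. The most abundant of all, ENSRNA049478226 (chromosome 6), had 15364 RPKM in NO3-+cPTIO, 27056 RPKM in NO3- and 19358 RPKM in -N. The largest gain of the whole table, that of ENSRNA049478180, was also at a large-subunit ribosomal RNA locus on chromosome 6. It had 3114 RPKM in NO3-+cPTIO and 3591 RPKM in -N, and is listed at 0 in NO3-. A value of 0 between values of that size may be a failed estimate, so no ratio is read from it.

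MicroRNA loci show how the table divides reads between identifiers. Of 27 tested zma-MIR identifiers, 4 were higher (14.8%) and 15 lower (55.6%), against 7.08% and 12.7% of all genes tested and 13.4% and 49.0% of loci up to 500 bp. Of these, 3 and 11 were listed at 0 in the lower condition. Many share their locus with a second identifier for the same hairpin. ENSRNA049463648, of the MIR171_1 family, had 0.0335 RPKM in NO3-+cPTIO, 26.1 RPKM in NO3- and 80.1 RPKM in -N, a log2 ratio of -9.61. At the same locus (chromosome 5, 8896282 to 8896437), zma-MIR171f had 74.7 RPKM in NO3-+cPTIO and 74.3 RPKM in NO3-, and the sum of both had a log2 ratio of -0.43, within 2-fold. Likewise zma-MIR167b, with 7.96 RPKM in NO3-+cPTIO and 0.00889 RPKM in NO3-, shares its locus with ENSRNA049463701, listed at 0 in NO3-+cPTIO with 10.1 RPKM in NO3-, and their sum had a log2 ratio of -0.34. The locus of zma-MIR164b kept its direction in the sum, with 9.32 RPKM in NO3-+cPTIO against 30.3 RPKM in NO3-, and that of zma-MIR156k had 11.9 RPKM in NO3- and is listed at 0 in NO3-+cPTIO.

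Shared loci were not confined to microRNAs. Of the responding identifiers, 440 share a locus with another, 226 of them were past 2-fold in the same direction in the sum over the locus, and 18 loci held a higher and a lower identifier. Past a log2 ratio of 8 in either direction, 5 of 10 identifiers lay at shared loci. The highest ratio of all, that of Zm00001d049744 with 1.39 RPKM in NO3-+cPTIO and 0.000169 RPKM in NO3-, was at a locus of 3 identifiers on chromosome 4. There, Zm00001d049742 had 4.64 RPKM against 12.6 RPKM, and Zm00001d049743 had 2.16 RPKM against 3.05 RPKM. The genes with the largest ratios named above, Zm00001d018220, Zm00001d007285 and Zm00001d021168, are each alone at their locus.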

How the data were processed

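Reads were cleaned by the authors in Trimmomatic 0.33 and aligned with TopHat 2.0.13 to the AGPv4 assembly of B73. They computed expression with Cufflinks 2.2.1 (Cuffdiff), using quartile normalization and a correction for reads that map to several places. The deposited values are RPKM, 1 per gene and condition, pooled over libraries. The kit is named as stranded in the labels, but whether counting used strand is not given in the sources used here, so overlapping and antisense genes are uncertain. The depth of each library cannot be read from these values, and 0 columns of single samples were left out.

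Ratios of NO3-+cPTIO to NO3- were computed without a pseudocount (Python 3.11.15, pandas 2.3.3, numpy 2.4.6) for genes that reached 1 RPKM in either condition. A gene passed at over 2-fold, or when listed at 0 in 1 condition. The limit of 2-fold is that of the study, whose step on false discovery needs single libraries and was not run. No test was run, as the deposited table holds 1 value per condition.

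The genes named are the 8 highest and 8 lowest ratios at 10 RPKM or more, the 5 largest gains and losses, 3 genes listed at 0 in each condition, the 5 highest and lowest whose NO3- and -N values differed by less than a ratio of 5 to 4, genes the paper identifies, members of lists by level and the longest runs. Members and lists were chosen with earlier results of these data known. Names and roles are those of the study's text and pathway table, and the table of RefSeq names matched 153 identifiers, all of microRNAs. Coordinates are those of the deposited table, where overlapping genes share 1 locus (4764 identifiers at 2191 loci). Alternatives were other RPKM minimums, pseudocounts, scalings and limits.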

Additional observations from a re-analysis of the deposited data

How the results depend on the processing

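No paired analysis was possible because each condition has a single pooled value, and for the same reason no replicate could be left out. The count of responding genes depended on the filter and the limit. With an RPKM minimum of 0.1, 2704 genes were higher and 4786 lower in NO3-+cPTIO, 7490 in all. A minimum of 5 gave 923 higher and 1503 lower, 2426 in all, no minimum gave 3909 higher and 6712 lower, 10621 in all, and a minimum of 1 in both conditions gave 976 higher and 1708 lower, 2684 in all. A limit of 1.5-fold gave 2972 higher and 4979 lower, 7951 in all, and one of 4-fold 523 and 777, 1300 in all. A pseudocount of 1 left 1760 lower and 2797 in all, with 1037 higher. Lower genes outnumbered higher ones in all these settings, as they did in the other filters and with rescaling to the median ratio or to the upper quartile, but not with the same sum of RPKM (2258 higher, 1902 lower). Centring by length, which sets the median of the finite log2 ratios in each length class to 0, gave 1894 each. Scaling to the same sum moved the median log2 ratio to 0.19. The share of responding genes whose next tested gene passed in the same direction was 6.77% with the 4-fold limit. The counts with shared loci summed or left out moved by less than 1.5 times. Under the scaling to the same sum, the share of lower genes was 2.60% at 4000 to 8000 bp and 1.45% over 16000 bp, against 4.76% and 2.19% as deposited. Of 146 named identifiers above 0 in both conditions, scaling to the same sum took 11 back within 2-fold and a pseudocount of 1 took 10. No scaling or pseudocount tried could reverse a ratio past 2-fold. The scalings shifted log2 ratios by at most 0.24, and a pseudocount keeps the direction of a ratio. The deposited table holds neither depth nor single libraries, so the error of a ratio cannot be computed from it, above all under 3 RPKM, where 27.8% of the higher and 31.9% of the lower genes lie.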

Other observations

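Genes of the mitochondrial genome, described in no comparison above, leaned in 1 direction, as short loci in general did. Of 46 tested, none was over 2-fold higher and 9 (19.6%) were over 2-fold lower in NO3-+cPTIO, against 7.08% and 12.7% of all genes tested, with a median log2 ratio of -0.51. Among all tested loci up to 500 bp, 13.4% were higher and 49.0% lower, with a median log2 ratio of -0.98. Between 500 and 1000 bp these were 9.25%, 37.8% and -0.65. Values over the whole mitochondrial genome summed to 1093 RPKM in NO3-+cPTIO, 2272 RPKM in NO3- and 1576 RPKM in -N. An RNA gene, ENSRNA049457201, accounted for 435 of these RPKM in NO3-+cPTIO and 1145 in NO3-, and GRMZM5G881135, with 208 RPKM against 413 RPKM, lay just within 2-fold. Most of these transcripts come from short loci and carry no stable poly(A) tail in plants, and the part of either in their ratios was not tested. In the plastid genome, GRMZM5G844074 had 1.42 RPKM in NO3-+cPTIO and is listed at 0 in NO3-, and GRMZM5G853305 had 0.580 RPKM against 1.26 RPKM.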
